A study of Homo sapiens with 9 samples.

Results

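The genes described here encode subunits of the vacuolar ATPase (V-ATPase) and proteins of the lysosome, together with the transcription factor TFEB and the autophagy receptor SQSTM1. They are a list of 49 named genes, each read from every probe set that the array's annotation gives to that gene symbol alone. The list covered 172 of the 49395 probe sets on the array and 49 of the 18132 genes that could be read. The genes fall into 17 V-ATPase genes and 32 other genes of the lysosome and its regulation.

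RNA of HCCC-9810, an established human cholangiocarcinoma (bile duct cancer) cell line, was measured on Affymetrix arrays in 3 groups of 3 biological replicates. The groups were cells transfected with siRNA against BAP1, a nuclear deubiquitinase and tumour suppressor (si-BAP1), cells transfected with siRNA against MBD5, a methyl-CpG-binding domain protein (si-MBD5), and cells given control RNA (si-Control). The labels name the control both as si-Control and as an shRNA, and give no siRNA sequence, dose or time after transfection. All values come from 1 cell line, so each p-value measures the spread between its cultures.

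The V-ATPase is a rotary proton pump. Its V1 sector, on the cytosolic side, splits ATP and turns a rotor, and its membrane-bound V0 sector moves protons into the lysosome. The resulting acidity activates the cathepsins, glycosidases and lipid-degrading enzymes inside, and the membrane around them is covered with heavily glycosylated proteins such as LAMP1 and LAMP2. Many of these genes are known targets of TFEB and its relatives, which enter the nucleus when the kinase mTORC1 is inactive and bind CACGTG-containing elements close to lysosomal gene starts.

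Promoter windows, from 250 bases before to 50 bases after the annotated start (RefSeq, GRCh38.p14), were found for 35 of the 49 members. The letters CACGTG, which read the same on both strands, stood in 11 of these 35 windows (31.4%), against 2030 of all 27305 windows (7.43%) and 8.82% of windows of genes with a probe set on the array. TCACGTG, searched on both strands and overlapping CACGTG by construction, stood in 28.6% of member windows, against 3.82% of all windows. The stretches around the matches are shown for 5 members whose RNA fell in the knockdowns and for LAMP1, which had 6 matches and whose brightest probe set showed no called change. They are written from 5′ to 3′ along the gene's strand, with every CACGTG in capitals.
MCOLN1, chr19:7522563-7522629, plus strand: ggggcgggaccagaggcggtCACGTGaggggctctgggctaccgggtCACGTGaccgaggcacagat
CTSA, chr20:45891273-45891335, plus strand: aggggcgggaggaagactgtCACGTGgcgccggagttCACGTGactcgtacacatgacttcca
CTSD, chr11:1763949-1763994, minus strand: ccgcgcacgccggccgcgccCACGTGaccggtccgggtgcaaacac
NEU1, chr6:31862922-31862967, minus strand: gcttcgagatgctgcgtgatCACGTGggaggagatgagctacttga
CD63, chr12:55729164-55729209, minus strand: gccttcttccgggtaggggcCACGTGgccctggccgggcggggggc
LAMP1, chr13:113297027-113297244, plus strand: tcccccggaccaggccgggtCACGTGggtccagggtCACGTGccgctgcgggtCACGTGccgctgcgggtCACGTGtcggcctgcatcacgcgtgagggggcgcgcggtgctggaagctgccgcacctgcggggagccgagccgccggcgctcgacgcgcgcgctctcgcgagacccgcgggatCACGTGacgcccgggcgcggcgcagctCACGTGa

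The nearest match lay 14 bases before the start in MCOLN1, 25 in CTSA, 47 in CTSD, 126 in NEU1 and 180 in CD63. The remaining 5 windows with a match belonged to ATP6V0B, ATP6V0D1, ATP6V0E2, ATP6V1G1 and GAA. Among members lower in at least 1 knockdown, 6 of 15 windows (40%) held CACGTG, and among members called in neither knockdown 5 of 18 (27.8%) did. For TCACGTG these were 5 of 15 (33.3%) and 5 of 18 (27.8%). The shares rest on few windows, and their difference was not tested. A match is a run of letters and does not show that a factor binds there.

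The deposited values were intensities on a linear scale, and array medians ran from 36.9 to 38.2. The filter on dim signals was set at an intensity of 25.5, the 40th percentile of the non-control probe sets, and a gene was tested from the brightest of its own probe sets whose mean passed it. This left 12431 genes and 48 of the 49 members. CTSH, a lysosomal cysteine protease, was not tested, because its probe sets read 13.1 to 18.8 on the 9 arrays. Members were bright for this array: 39 of 48 lay above the 80th percentile. Changes are log2 fold changes of intensity + 16 with their standard error (SE), and a gene is said to have risen or fallen where the limma p adjusted over all tested genes was under 0.05. Because of the added 16, a printed change is smaller than the raw intensities beside it would give.

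The target gene MBD5 was too dim to settle its knockdown. Its brighter probe set averaged 6.17 ± 0.056 in si-MBD5 cells and 7.04 ± 0.13 in si-Control cells (SD, n = 3 each), with a log2 fold change of -0.055 and a limma adjusted p of 0.308. The exact two-sided permutation test gave p = 0.1, below which groups of 3 arrays cannot go. BAP1 itself was not analysed here. On the list of biliary markers, the keratins KRT7, KRT8 and KRT18 averaged 1034, 725.5 and 1721 over the 9 arrays, while KRT19 and EPCAM averaged 20.6 and 8.67, under the filter. Of 12 biliary markers read, 6 passed the filter. Of 9 hepatocyte markers, 3 passed it, APOA1 at 45.9, TTR at 40.5 and TF at 28.4. Of 9 macrophage and leukocyte markers, 2 passed it, TYROBP at 58.9 and CD3E at 27.9, while CSF1R averaged 25.2 and the pan-leukocyte marker PTPRC 3.51, the lowest of the list. The summed intensity of these 9 was 160.2 to 188 in si-BAP1, 166.9 to 181.7 in si-MBD5 and 170.7 to 179.1 in si-Control cells. Of 8 fibroblast and endothelial markers, 4 passed the filter, PDGFRB at 60.9, VWF at 44, PECAM1 at 39.4 and COL1A1 at 29.5. The summed intensity of these 8 was 222 to 245.8 in si-BAP1, 226 to 251.1 in si-MBD5 and 217.5 to 224.8 in si-Control cells. Their si-MBD5 sums thus all lay above si-Control, and the cause was not tested. RNA quality was read from the ACTB and GAPDH control probe sets, as their 3′ signal divided by their 5′ signal. For ACTB the ratio was 11.1 ± 0.31 in si-BAP1, 12.3 ± 0.72 in si-MBD5 and 12.2 ± 0.52 in si-Control cells (SD, n = 3 each), with exact permutation p = 0.1 for si-BAP1 and 0.8 for si-MBD5 against si-Control. The si-BAP1 ratios (10.8 to 11.4) all lay below the si-Control ratios (11.8 to 12.8), so this p of 0.1 is the lowest possible. On all 9 arrays the 3′ signal of ACTB was far above its 5′ signal. For GAPDH it was 1.08 ± 0.011, 1.07 ± 0.0046 and 1.06 ± 0.026 in the same order, with exact permutation p = 0.3 and 0.7. The part of RNA quality in the results was not tested.

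In si-BAP1 cells 17 of the 48 tested members fell, 1 rose and 30 did not pass the test. Falls were called for 11.1% of all tested genes and rises for 12.4%. The median log2 fold change of the members was -0.086, against 0.00048 for all tested genes. These are averages over whole cultures, in which fewer cells expressing a gene and less RNA per cell cannot be told apart. The largest fall was that of SQSTM1 (-0.40) and the rise was that of CTSZ (0.57). On 21 members the si-BAP1 arrays all lay below the si-Control arrays, and on 2 they all lay above. Groups did not overlap, in either direction, for 37.5% of all tested genes.

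In si-MBD5 cells, set against the same si-Control arrays, 16 of the 48 members fell, 1 rose and 31 did not pass. Falls were called for 8.99% of all tested genes and rises for 7.3%. The members' median was -0.088, against 9.5e-05 for all tested genes. The largest fall was that of ATP6V0E1 (-0.30), and the rise was again that of CTSZ (0.32). The arrays lay entirely below si-Control on 21 members and entirely above on 2, while 30.4% of all tested genes had groups that did not overlap. The count of falls rested partly on single arrays: it was 9 without si-Control replicate 1, 9 without si-MBD5 replicate 1 and 10 without si-Control replicate 2. Since both knockdowns were compared with the same 3 si-Control arrays, their values are given side by side and their likeness was not tested.

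Among genes as bright as most members, calls were more frequent. With only genes above the 80th percentile, a setting chosen after the data were seen, 15 of 39 members fell in si-BAP1 cells, beside 17% of 5280 genes. In si-MBD5 cells 16 of 39 members fell, beside 15.8% of these genes.

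**Figure D1:**
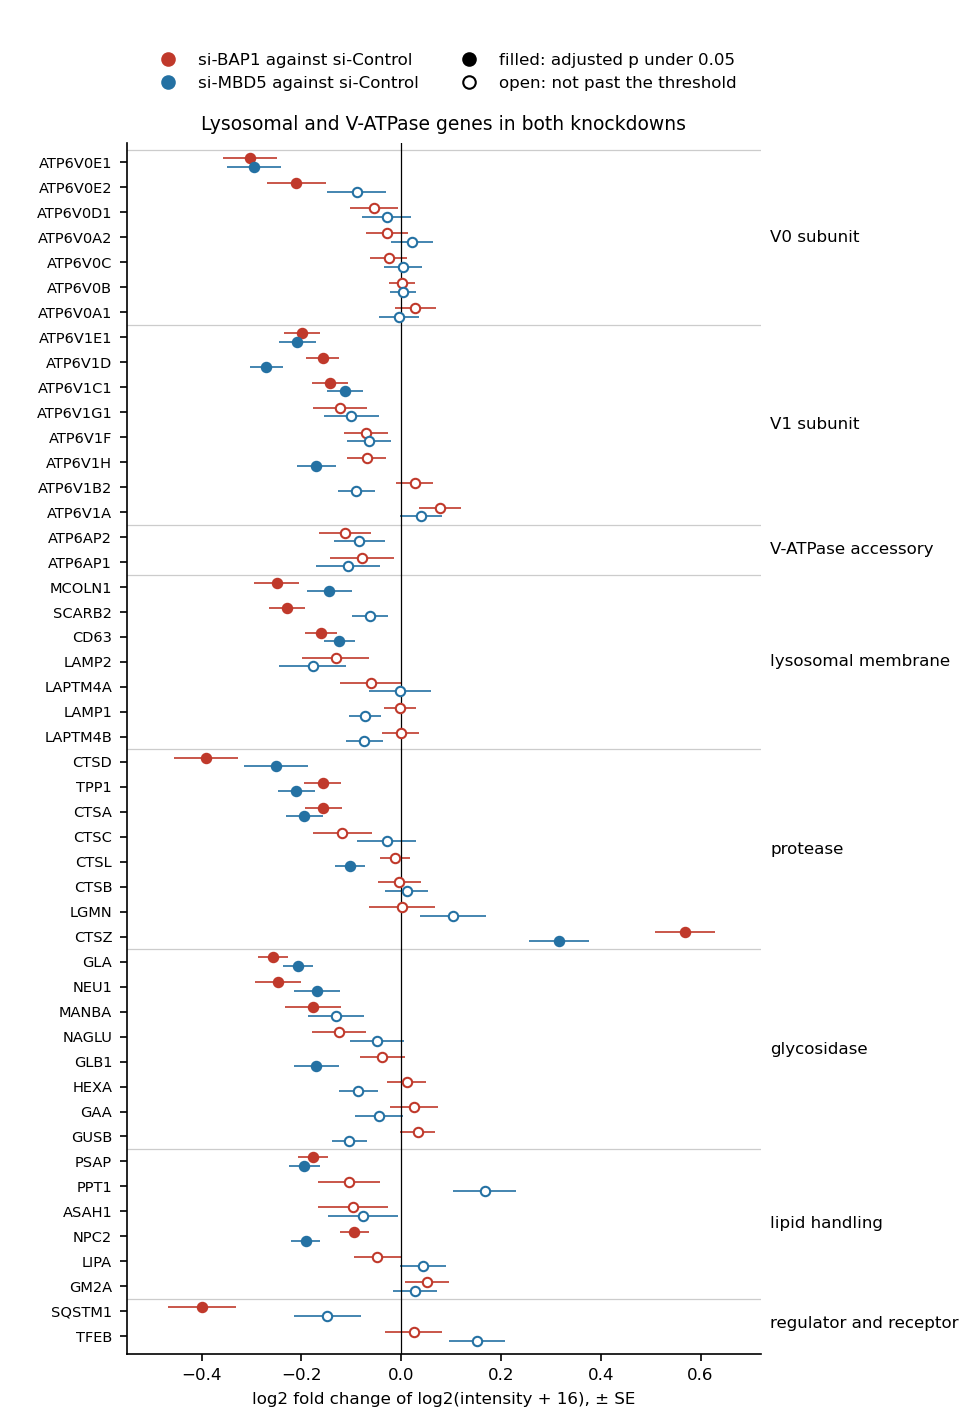
Log2 fold change of log2(intensity + 16) for the 48 tested members, grouped by role, in si-BAP1 and si-MBD5 cells against si-Control. Points are the fitted change and bars its SE, and filled points have a limma adjusted p under 0.05. Most points lie left of 0, and CTSZ alone is filled to the right of it, at 0.57 and 0.32.

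Of the 7 genes of the V0 sector, 2 fell in si-BAP1 cells and 1 in si-MBD5 cells, and none rose. ATP6V0E1, which encodes the small membrane subunit e, read 1769, 1967 and 1840 in si-BAP1 cells and 1906, 2013 and 1697 in si-MBD5 cells, against 2339, 2237 and 2310 in si-Control cells. Every knockdown array lay below every si-Control array. The log2 fold change was -0.30 (SE 0.054) in both knockdowns, with adjusted p = 0.000995 for si-BAP1 and 0.0022 for si-MBD5. All 4 of its probe sets fell in both knockdowns, by 0.24 to 0.37 on the log2 scale.

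ATP6V0E2, the second gene for subunit e, read 118, 106.2 and 110.1 in si-BAP1 cells and 120.3, 115.5 and 132.1 in si-MBD5 cells, against 137.7, 134.8 and 121.9 in si-Control cells. The si-BAP1 arrays lay below si-Control, and the si-MBD5 arrays overlapped it. The fall in si-BAP1 cells was 0.21 on the log2 scale (SE 0.059, adjusted p = 0.0185), and the si-MBD5 value of -0.09 did not pass (adjusted p = 0.358). The si-BAP1 call did not pass without si-BAP1 replicate 2 (-0.18, adjusted p = 0.0741), si-BAP1 replicate 3 (-0.20, 0.0648), si-Control replicate 1 (-0.18, 0.0788) or si-Control replicate 2 (-0.19, 0.0753), and its 2 dimmer probe sets showed no called change. Neither knockdown passed the test for the proton-carrying ring subunits ATP6V0B and ATP6V0C, the a subunits ATP6V0A1 and ATP6V0A2 or the d subunit ATP6V0D1, whose changes on the brightest probe set ran from -0.055 to 0.028. Of the other 5 probe sets of ATP6V0B, 2 fell in si-BAP1 cells, by 0.12 (adjusted p = 0.0194) and 0.14 (adjusted p = 0.0217), and 1 in si-MBD5 cells, by 0.12 (adjusted p = 0.0388).

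The V1 sector had 3 of 8 genes fall in si-BAP1 cells and 4 of 8 in si-MBD5 cells. ATP6V1E1, a subunit of the outer stalks, read 985.8, 1037 and 962 in si-BAP1 cells and 962, 998.3 and 1003 in si-MBD5 cells, against 1154, 1167 and 1110 in si-Control cells. Again no knockdown array reached a si-Control array. It fell by 0.20 on the log2 scale in si-BAP1 cells (SE 0.037, adjusted p = 0.00135) and by 0.21 in si-MBD5 cells (SE 0.037, adjusted p = 0.00176).

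ATP6V1D, a subunit of the central rotor, read 1328, 1342 and 1335 in si-BAP1 cells and 1192, 1247 and 1259 in si-MBD5 cells, against 1542, 1478 and 1453 in si-Control cells. The 3 groups did not overlap, with si-MBD5 lowest. It fell by 0.16 in si-BAP1 cells (SE 0.033, adjusted p = 0.00346) and by 0.27 in si-MBD5 cells (SE 0.033, adjusted p = 0.000136), both on the log2 scale. Without the _x_at and _s_at probe sets, which can also read related genes, the si-BAP1 value was -0.11 and did not pass. ATP6V1H, a regulatory subunit that couples the V1 sector to the membrane part, averaged 180.5 ± 0.52 in si-BAP1, 167.3 ± 5.2 in si-MBD5 and 190.2 ± 0.73 in si-Control cells (SD, n = 3 each). Its fall of 0.17 in si-MBD5 cells passed (adjusted p = 0.00949), while -0.07 in si-BAP1 cells did not (adjusted p = 0.247).

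For ATP6V1C1, the C subunit that takes part in joining the sectors, the probe sets gave opposite calls. The brightest averaged 809.5 ± 10.3 in si-BAP1, 827.1 ± 25.9 in si-MBD5 and 895.1 ± 26.9 in si-Control cells (SD, n = 3 each), a fall of 0.14 in si-BAP1 (adjusted p = 0.0105) and of 0.11 in si-MBD5 cells (adjusted p = 0.0497) on the log2 scale. A dim probe set of the same gene rose by 0.26 in si-BAP1 cells (adjusted p = 0.0231 over all probe sets), and another rose by 0.24 in si-MBD5 cells (adjusted p = 0.0242). The si-MBD5 call on the brightest probe set held in 4 of 21 alternative settings. A further bright probe set fell by 0.19 in si-BAP1 and by 0.16 in si-MBD5 cells. Because the calls are opposite, no direction is given for ATP6V1C1, although the counts of falls include it through its brightest probe set. The catalytic subunit A (ATP6V1A), subunit B (ATP6V1B2) and the stalk or rotor subunits ATP6V1F and ATP6V1G1 passed in neither knockdown on their brightest probe sets, and neither did the accessory proteins ATP6AP1 and ATP6AP2, which help assemble the pump. A dimmer probe set of ATP6AP2 fell by 0.17 in si-BAP1 cells (adjusted p = 0.0482) and by 0.18 in si-MBD5 cells (adjusted p = 0.0429). A dimmer probe set of ATP6V1B2 rose by 0.19 in si-BAP1 cells (adjusted p = 0.0063).

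Among the 7 membrane proteins of the lysosome, 3 fell in si-BAP1 cells and 2 in si-MBD5 cells. MCOLN1, a channel that releases calcium from lysosomes, read 307.4, 320 and 318.3 in si-BAP1 cells and 325.6, 350.7 and 345 in si-MBD5 cells, against 383.9, 393.1 and 357.3 in si-Control cells. Both knockdowns lay below si-Control without overlap. It fell by 0.25 in si-BAP1 cells (SE 0.045, adjusted p = 0.00112) and by 0.14 in si-MBD5 cells (SE 0.045, adjusted p = 0.0446) on the log2 scale. The si-MBD5 call was borderline: it held in 9 of 21 alternative settings, and without si-MBD5 replicate 1 the change was -0.11 (adjusted p = 0.163).

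SCARB2, which carries the enzyme beta-glucocerebrosidase to lysosomes, read 922.3, 991 and 1007 in si-BAP1 cells and 1078, 1117 and 1085 in si-MBD5 cells, against 1143, 1141 and 1144 in si-Control cells. Groups were separate, with si-BAP1 lowest. The fall of 0.23 in si-BAP1 cells passed (SE 0.036, adjusted p = 0.000413) and the si-MBD5 value of -0.06 did not (adjusted p = 0.287). Its 2 dimmer probe sets showed no called change, and with the mean of its probe sets the si-BAP1 value was -0.08 (adjusted p = 0.146). CD63, a tetraspanin of late endosomes and lysosomes, averaged 2084 ± 68.8 in si-BAP1, 2138 ± 42.3 in si-MBD5 and 2331 ± 50.3 in si-Control cells (SD, n = 3 each). It fell by 0.16 in si-BAP1 (adjusted p = 0.00204) and by 0.12 in si-MBD5 cells (adjusted p = 0.0167). The si-MBD5 call was lost without si-Control replicate 1, si-Control replicate 2 or si-MBD5 replicate 1, and with no intensity trend.

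LAMP1, the most used marker of lysosomes, read 2527, 2518 and 2589 in si-BAP1 cells and 2407, 2354 and 2518 in si-MBD5 cells, against 2633, 2528 and 2490 in si-Control cells. Both knockdowns overlapped si-Control, and its log2 fold changes were -0.0029 (SE 0.032, adjusted p = 0.965) in si-BAP1 and -0.07 (SE 0.032, adjusted p = 0.16) in si-MBD5 cells. Another of its 3 probe sets fell in si-MBD5 cells, by 0.13 on the log2 scale (adjusted p = 0.0394 over all probe sets), and the mean of its probe sets passed there too (-0.12, adjusted p = 0.0173). LAMP2, its close relative with a role in fusing autophagosomes with lysosomes, did not pass on its brightest probe set, with -0.13 in si-BAP1 (adjusted p = 0.197) and -0.18 in si-MBD5 cells (adjusted p = 0.0971). Another 3 of its 5 probe sets fell in both knockdowns, by 0.20 to 0.28. The small membrane proteins LAPTM4A and LAPTM4B passed in neither knockdown, though 1 dimmer probe set of LAPTM4A fell by 0.18 in si-BAP1 cells (adjusted p = 0.028).

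The proteases moved in both directions, with 3 of 8 lower and 1 higher in si-BAP1 cells and 4 of 8 lower and 1 higher in si-MBD5 cells. CTSD, an aspartic protease and the principal cathepsin of that class, read 218.8, 225.1 and 243.1 in si-BAP1 cells and 236.8, 281 and 245 in si-MBD5 cells, against 327.1, 299.4 and 289.2 in si-Control cells. No knockdown array reached the lowest si-Control array. It fell by 0.39 in si-BAP1 cells (SE 0.064, adjusted p = 0.000535) and by 0.25 in si-MBD5 cells (SE 0.064, adjusted p = 0.0169) on the log2 scale. The si-MBD5 call was lost without si-Control replicate 1 (-0.20, adjusted p = 0.0778) or si-MBD5 replicate 1 (-0.20, adjusted p = 0.086).

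CTSA, a carboxypeptidase that also stabilises NEU1 and GLB1 in a complex, read 683.8, 676.2 and 689 in si-BAP1 cells and 637.4, 674.5 and 683.4 in si-MBD5 cells, against 780.6, 770.7 and 737.5 in si-Control cells. Both knockdowns lay below si-Control. It fell by 0.16 in si-BAP1 (SE 0.038, adjusted p = 0.0079) and by 0.19 in si-MBD5 cells (SE 0.038, adjusted p = 0.0032). TPP1, which clips tripeptides from protein ends, read 851.5, 859.1 and 870.3 in si-BAP1 cells and 812.3, 867 and 808.1 in si-MBD5 cells, against 989.2, 929.9 and 965.4 in si-Control cells, and both knockdowns lay below si-Control. Its fall of 0.16 in si-BAP1 cells (SE 0.037, adjusted p = 0.00722) and 0.21 in si-MBD5 cells (SE 0.037, adjusted p = 0.00182) rested on its brightest probe set, and the other 8 showed no called change.

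CTSZ, a carboxypeptidase of the cathepsin family, moved the other way. It read 977.8, 1026 and 1139 in si-BAP1 cells and 840.2, 919.8 and 866.4 in si-MBD5 cells, against 663.4, 681.4 and 757.4 in si-Control cells. The 3 groups were separate, with si-BAP1 highest and si-MBD5 between. It rose by 0.57 in si-BAP1 cells (SE 0.06, adjusted p = 1.42e-05) and by 0.32 in si-MBD5 cells (SE 0.06, adjusted p = 0.0027), and 1 probe set above the filter read it. CTSL, a cysteine protease, had -0.01 in si-BAP1 cells, which did not pass (adjusted p = 0.821), and fell by 0.10 in si-MBD5 cells (adjusted p = 0.0327). That call held in 13 of 21 alternative settings, failing without si-Control replicate 1 or 2 or si-MBD5 replicate 1 or 2. It also failed with quantile normalization, the replicate number as a block, only the 2 groups compared or no intensity trend. CTSB, CTSC and LGMN passed in neither knockdown.

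**Figure D2:**
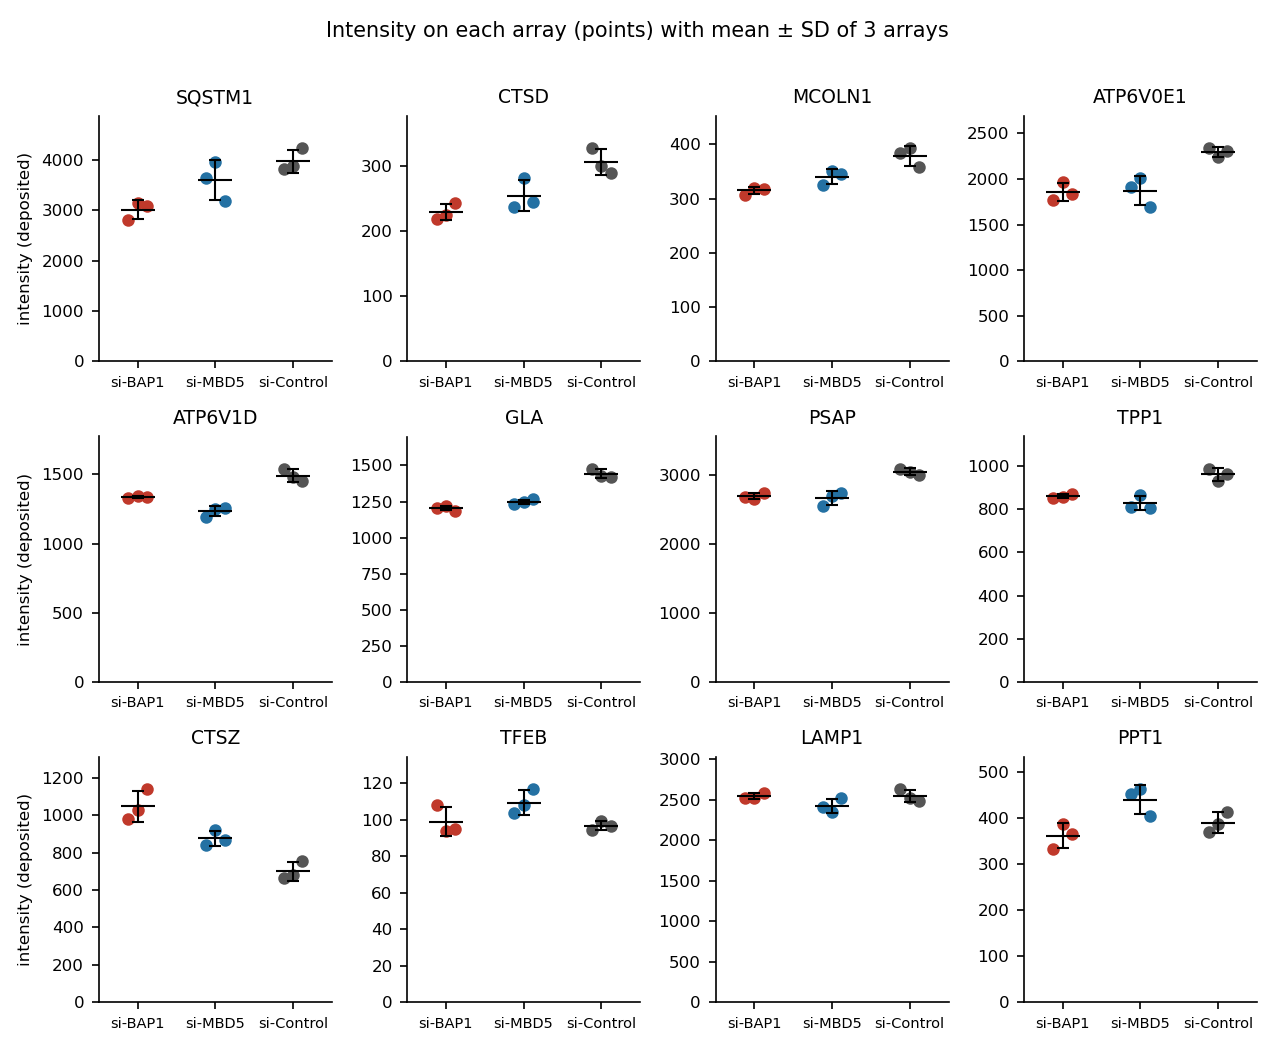
Deposited intensity on each array (points) with the mean and SD of 3 arrays (bars) for 12 members in si-BAP1, si-MBD5 and si-Control cells, on linear axes from 0. CTSD averaged 229 in si-BAP1, 254.3 in si-MBD5 and 305.2 in si-Control cells, while CTSZ stands higher in both knockdowns.

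Of the 8 glycosidases, which remove sugars from glycolipids, glycoproteins and glycosaminoglycans, 3 fell in each knockdown. GLA, the alpha-galactosidase lost in Fabry disease, read 1208, 1218 and 1187 in si-BAP1 cells and 1233, 1244 and 1265 in si-MBD5 cells, against 1479, 1425 and 1422 in si-Control cells. The knockdown arrays lay well below si-Control and within a narrow range. It fell by 0.26 in si-BAP1 cells (SE 0.03, adjusted p = 3.78e-05) and by 0.21 in si-MBD5 cells (SE 0.03, adjusted p = 0.000486), and all 3 probe sets fell in both.

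NEU1, a sialidase, read 560.4, 597.2 and 587.2 in si-BAP1 cells and 587.6, 663.4 and 596.3 in si-MBD5 cells, against 702.7, 687.7 and 688.5 in si-Control cells. No knockdown array reached si-Control. It fell by 0.25 in si-BAP1 (SE 0.046, adjusted p = 0.00137) and by 0.17 in si-MBD5 cells (SE 0.046, adjusted p = 0.0232). The si-MBD5 call was lost when si-Control replicate 1, 2 or 3, or si-MBD5 replicate 1 or 3, was left out. GLB1, the beta-galactosidase, read 329.5, 338.3 and 340.9 in si-BAP1 cells and 286.1, 314.9 and 315.6 in si-MBD5 cells, against 346.3, 355.5 and 334.9 in si-Control cells. The si-MBD5 arrays lay below si-Control and the si-BAP1 arrays overlapped it. The si-MBD5 fall of 0.17 passed (SE 0.045, adjusted p = 0.0198), and the si-BAP1 value of -0.04 did not (adjusted p = 0.63). Without si-Control replicate 1 the si-MBD5 value was -0.17 (adjusted p = 0.0578), without si-Control replicate 2 it was -0.15 (0.0949) and without si-MBD5 replicate 1 it was -0.13 (0.0817).

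MANBA, the beta-mannosidase, averaged 42.6 ± 3.1 in si-BAP1, 44.4 ± 1.9 in si-MBD5 and 50.2 ± 3.3 in si-Control cells (SD, n = 3 each). Its fall in si-BAP1 cells (-0.18, adjusted p = 0.0356) was lost without si-BAP1 replicate 1 or 2 or si-Control replicate 2 or 3, and also with no filter. The si-MBD5 value of -0.13 did not pass (adjusted p = 0.141). GAA, HEXA, NAGLU and GUSB passed in neither knockdown on their brightest probe sets, and 1 of 6 other probe sets of HEXA fell by 0.18 in si-MBD5 cells (adjusted p = 0.0302).

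Of the 6 genes for lipid handling, PSAP and NPC2 fell in both knockdowns. PSAP, the precursor of the saposins that help enzymes reach sphingolipids, read 2690, 2664 and 2746 in si-BAP1 cells and 2550, 2706 and 2746 in si-MBD5 cells, against 3100, 3056 and 3005 in si-Control cells. All knockdown arrays lay below si-Control. It fell by 0.18 in si-BAP1 (SE 0.031, adjusted p = 0.000855) and by 0.19 in si-MBD5 cells (SE 0.031, adjusted p = 0.000852). Without the _x_at and _s_at probe sets the si-BAP1 value was -0.09 (adjusted p = 0.223).

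NPC2, which takes up cholesterol inside the lysosome, read 2451, 2412 and 2323 in si-BAP1 cells and 2254, 2212 and 2246 in si-MBD5 cells, against 2500, 2577 and 2596 in si-Control cells. Both knockdowns lay below si-Control, si-MBD5 further than si-BAP1. It fell by 0.09 in si-BAP1 cells (SE 0.029, adjusted p = 0.0295) and by 0.19 in si-MBD5 cells (SE 0.029, adjusted p = 0.000606). The si-BAP1 call was lost without si-BAP1 replicate 2 or 3 or si-Control replicate 2 or 3. It was also lost with no filter, with the replicate number as a block and with no intensity trend. LIPA, the lysosomal acid lipase, ASAH1, an acid ceramidase, and GM2A, a lipid-binding activator of HEXA, passed in neither knockdown on their brightest probe sets, and 1 of 4 other probe sets of ASAH1 fell by 0.18 in si-BAP1 cells (adjusted p = 0.0393).

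PPT1, which removes fatty acids from proteins, read 333.4, 388.3 and 365.6 in si-BAP1 cells and 453.5, 463.6 and 405.4 in si-MBD5 cells, against 370.5, 386.7 and 414.7 in si-Control cells. Both knockdowns overlapped si-Control. Its log2 fold changes were -0.10 (SE 0.063, adjusted p = 0.277) in si-BAP1 and 0.17 (SE 0.063, adjusted p = 0.0919) in si-MBD5 cells. A pair of further probe sets of PPT1 rose in si-MBD5 cells, by 0.18 (adjusted p = 0.0144) and 0.20 (adjusted p = 0.00625).

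SQSTM1 (p62) binds ubiquitinated cargo and delivers it to autophagosomes. It read 2798, 3152 and 3075 in si-BAP1 cells and 3636, 3967 and 3182 in si-MBD5 cells, against 3812, 3872 and 4235 in si-Control cells. The si-BAP1 arrays lay below si-Control, while the si-MBD5 arrays overlapped it. It fell by 0.40 in si-BAP1 cells (SE 0.068, adjusted p = 0.000671), and the si-MBD5 value of -0.15 did not pass (SE 0.068, adjusted p = 0.17). The other 4 probe sets of SQSTM1 fell in both knockdowns, by 0.41 to 0.75 in si-BAP1 cells and by 0.15 to 0.40 in si-MBD5 cells. Without si-MBD5 replicate 2 the brightest probe set also passed in si-MBD5 cells (-0.22, adjusted p = 0.0307).

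TFEB read 108, 93.7 and 95.2 in si-BAP1 cells and 103.5, 108 and 116.8 in si-MBD5 cells, against 94.2, 99.5 and 96.8 in si-Control cells. The si-BAP1 arrays overlapped si-Control and the si-MBD5 arrays lay above it. Neither change passed, with 0.03 in si-BAP1 (SE 0.057, adjusted p = 0.815) and 0.15 in si-MBD5 cells (SE 0.057, adjusted p = 0.0919). These are levels of TFEB mRNA, and the arrays do not measure where the protein lies.

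Read probe set by probe set, 155 of the 172 member probe sets passed the filter, and 39 members had several. In si-BAP1 cells 44 of these 155 fell (28.4%) and 3 rose, while 8.78% of all 29576 probe sets above the filter fell and 11.4% rose. In si-MBD5 cells 40 fell (25.8%) and 4 rose, beside 6.66% and 5.89% of all probe sets. Probe sets of 1 gene share its RNA and are not independent. Of the 18 members called in si-BAP1 cells, 16 had other probe sets above the filter: in 9 of them all others carried the same call, in 3 some did, and in 4 none did. Of the 17 called in si-MBD5 cells, 13 had others, which all carried the same call in 6, partly in 4 and not at all in 3. Conversely, 6 members not called in si-BAP1 cells (ATP6V0B, ATP6V1B2, ATP6AP2, LAMP2, LAPTM4A and ASAH1) and 7 not called in si-MBD5 cells (ATP6V0B, ATP6AP2, LAMP1, LAMP2, HEXA, PPT1 and SQSTM1) had another probe set that was. Between si-BAP1 and si-MBD5 cells 3 of the 155 were higher and 9 lower, beside 4.53% and 3.16% of all probe sets. A dimmer probe set of LAPTM4B, whose brightest did not pass, was among the higher ones (0.15, adjusted p = 0.0249).

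**Figure D3:**
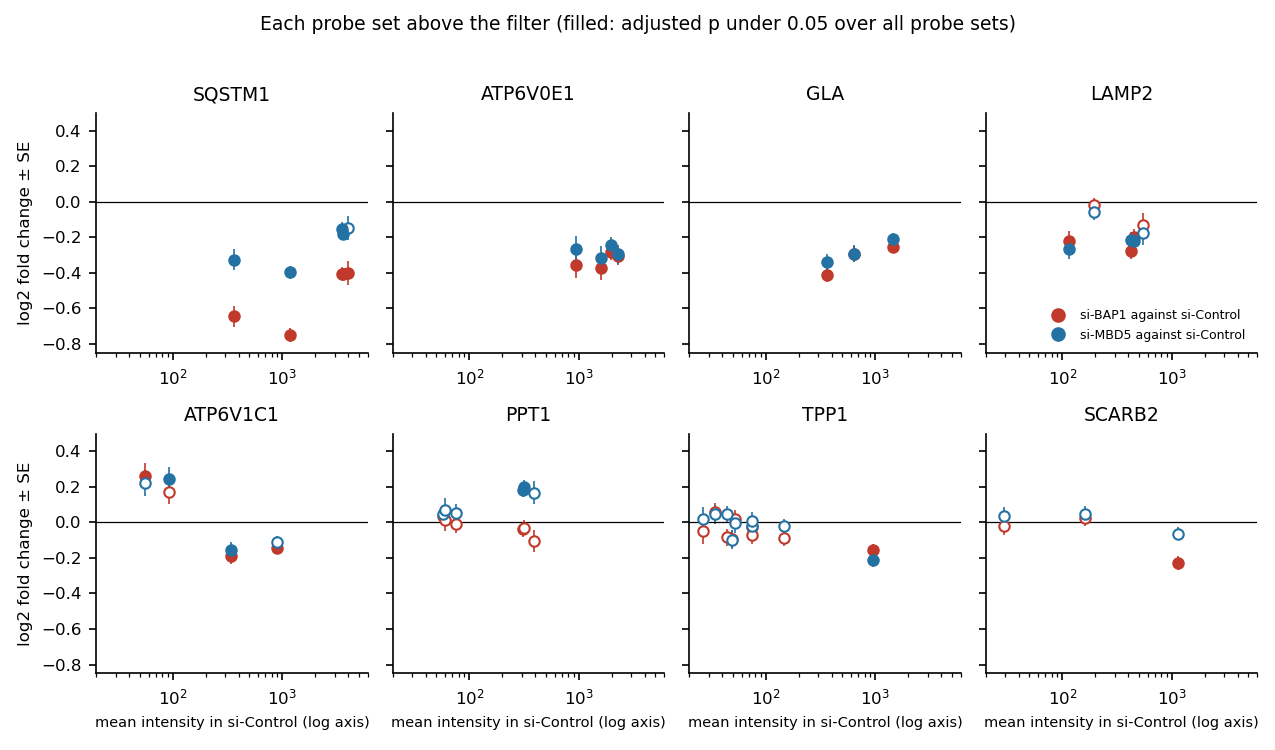
Each probe set above the filter for 8 members, by its mean intensity in si-Control (log axis) and its log2 fold change ± SE in si-BAP1 and si-MBD5 cells against si-Control, filled where the adjusted p over all probe sets was under 0.05. All probe sets of SQSTM1 fell in si-BAP1 cells by 0.40 to 0.75, while the dim probe sets of ATP6V1C1 lie above 0 and its bright ones below.

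Set directly against si-MBD5, si-BAP1 cells had 4 of 48 members higher and 3 lower, while 5.76% of all tested genes were higher and 4.22% lower. CTSZ was higher in si-BAP1 than in si-MBD5 cells by 0.25 (SE 0.06, adjusted p = 0.0164), and also ATP6V1D by 0.11 (SE 0.033, adjusted p = 0.0471) and NPC2 by 0.10 (SE 0.029, adjusted p = 0.0492). The CTSZ call held in 19 of 21 alternative settings, but the ATP6V1D call in 8 of 21 and the NPC2 call in 5 of 21. With the mean of its probe sets NPC2 was at 0.036 (limma adjusted p = 0.544). GUSB, the beta-glucuronidase, read 648.4, 680.5 and 668.4 in si-BAP1 cells and 592.5, 616.3 and 603.3 in si-MBD5 cells. These groups were separate, and the difference of 0.14 passed (SE 0.035, adjusted p = 0.024). The si-Control arrays read 645, 660.8 and 645, overlapping si-BAP1 and above si-MBD5.

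Lower in si-BAP1 than in si-MBD5 cells were PPT1 (-0.27, SE 0.063, adjusted p = 0.0145), SQSTM1 (-0.25, SE 0.068, adjusted p = 0.0314) and SCARB2 (-0.17, SE 0.036, adjusted p = 0.011). All 4 dimmer probe sets of SQSTM1 were also lower in si-BAP1 than in si-MBD5 cells. The other 41 members did not pass, which does not show that they are alike. None of the 7 calls held in all alternative settings. The SQSTM1 call held in 13 of 21 and the SCARB2 call in 20 of 21. Without si-MBD5 replicate 1 there were 0 members higher and 1 lower, without si-BAP1 replicate 1 there were 2 higher and 1 lower, without si-BAP1 replicate 2 there were 1 higher and 3 lower, and without si-BAP1 replicate 3 there were 1 higher and 2 lower. Without si-Control replicate 2, which enters only the shared spread, 2 were higher and 3 lower.

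Genes of the same organelle outside the 49 were counted from further lists, to be read against the 11.1% of all tested genes lower and 12.4% higher in si-BAP1 cells and the 8.99% lower and 7.3% higher in si-MBD5 cells. Among 8 other tested V-ATPase genes, 2 fell in si-BAP1 and 3 in si-MBD5 cells, and none rose. TCIRG1, an a subunit of V0, averaged 124 ± 0.91 in si-BAP1, 116.2 ± 4.3 in si-MBD5 and 153.8 ± 12.2 in si-Control cells (SD, n = 3 each), a fall of 0.28 in si-BAP1 (adjusted p = 0.00164) and of 0.36 in si-MBD5 cells (adjusted p = 0.000493) on the log2 scale. DMXL2, a factor that helps assemble the pump, fell in si-BAP1 cells by 0.43 (adjusted p = 0.000866), and its relative DMXL1 fell in si-MBD5 cells by 0.27 (adjusted p = 0.0252). The median of these 8 was -0.11 in si-BAP1 and -0.12 in si-MBD5 cells.

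Of 27 other lysosomal hydrolases, 5 fell and 2 rose in si-BAP1 cells, and 4 fell and 1 rose in si-MBD5 cells. Their medians were -0.042 in si-BAP1 and -0.049 in si-MBD5 cells. The cysteine protease CTSS had the largest fall. It averaged 21.7 ± 1.3 in si-BAP1, 23.2 ± 1.4 in si-MBD5 and 43.4 ± 1.9 in si-Control cells (SD, n = 3 each), a fall of 0.66 in si-BAP1 (adjusted p = 1.19e-06) and of 0.60 in si-MBD5 cells (adjusted p = 8.06e-06). Both knockdown means lay under the filter of 25.5, so CTSS was tested only through its si-Control signal. Nothing is read from the p-values of CTSS for this reason. The counts of falls given for this list include CTSS in both knockdowns and are to be read without it. DNASE2, which digests DNA, fell by 0.25 in si-BAP1 (adjusted p = 0.000251) and 0.24 in si-MBD5 cells (adjusted p = 0.000762), and RNASET2, which digests RNA, by 0.27 in si-BAP1 (adjusted p = 0.00589) and 0.23 in si-MBD5 cells (adjusted p = 0.0201). ARSB, a sulfatase, rose by 0.43 in si-BAP1 cells (adjusted p = 0.00501), and NAAA, an acid amidase, rose by 0.33 in si-BAP1 (adjusted p = 0.00152) and 0.21 in si-MBD5 cells (adjusted p = 0.0339).

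Of 21 other lysosomal membrane genes, 3 fell and 2 rose in si-BAP1 cells, and 4 fell and 1 rose in si-MBD5 cells. Their medians were -0.036 in si-BAP1 and -0.021 in si-MBD5 cells. In si-BAP1 cells these counts are close to the shares of all tested genes, and nothing is read from them about the list. The following are single genes. The sialomucin CD164 averaged 1891 ± 43.9 in si-BAP1, 1563 ± 25.5 in si-MBD5 and 1287 ± 63 in si-Control cells (SD, n = 3 each), a rise of 0.55 in si-BAP1 (adjusted p = 3.47e-07) and of 0.28 in si-MBD5 cells (adjusted p = 0.000219). SLC36A1, an amino acid transporter of the lysosome, fell by 0.25 in si-BAP1 (adjusted p = 0.00205) and 0.36 in si-MBD5 cells (adjusted p = 0.000273). LITAF, a protein of the endosomal membrane, fell by 0.24 in si-BAP1 (adjusted p = 6.67e-05) and 0.16 in si-MBD5 cells (adjusted p = 0.00281).

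Genes that deliver enzymes and vesicles to lysosomes were counted next. Of 27 tested, 4 fell and 2 rose in si-BAP1 cells and 3 fell and 0 rose in si-MBD5 cells, and their medians were 0.008 in si-BAP1 and -0.039 in si-MBD5 cells. The shares lower are close to those of all tested genes in both knockdowns, so nothing is read about this list, and the genes named are single genes. VPS11, a core subunit of the HOPS tethering complex, fell by 0.39 in si-BAP1 (adjusted p = 4.58e-05) and by 0.23 in si-MBD5 cells (adjusted p = 0.00389), and AP3M1, of the AP-3 coat, rose by 0.21 in si-BAP1 cells (adjusted p = 0.000694). Of 23 genes of mTORC1 control at the lysosome and of the TFEB family, 4 fell and 2 rose in si-BAP1 and 3 fell and 1 rose in si-MBD5 cells. FNIP1, a partner of folliculin, fell by 0.32 in si-BAP1 (adjusted p = 0.000906) and 0.22 in si-MBD5 cells (adjusted p = 0.0175). LAMTOR2, of the Ragulator scaffold, fell by 0.18 in si-BAP1 (adjusted p = 0.00458) and 0.17 in si-MBD5 cells (adjusted p = 0.00945). The medians of these 23 genes were -0.029 in si-BAP1 and -0.067 in si-MBD5 cells. MITF, a relative of TFEB, rose by 0.23 in si-BAP1 cells (adjusted p = 0.00899), and NPRL3, of the GATOR1 complex, rose by 0.16 in si-BAP1 (adjusted p = 0.0178) and 0.24 in si-MBD5 cells (adjusted p = 0.00277).

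**Figure D4:**
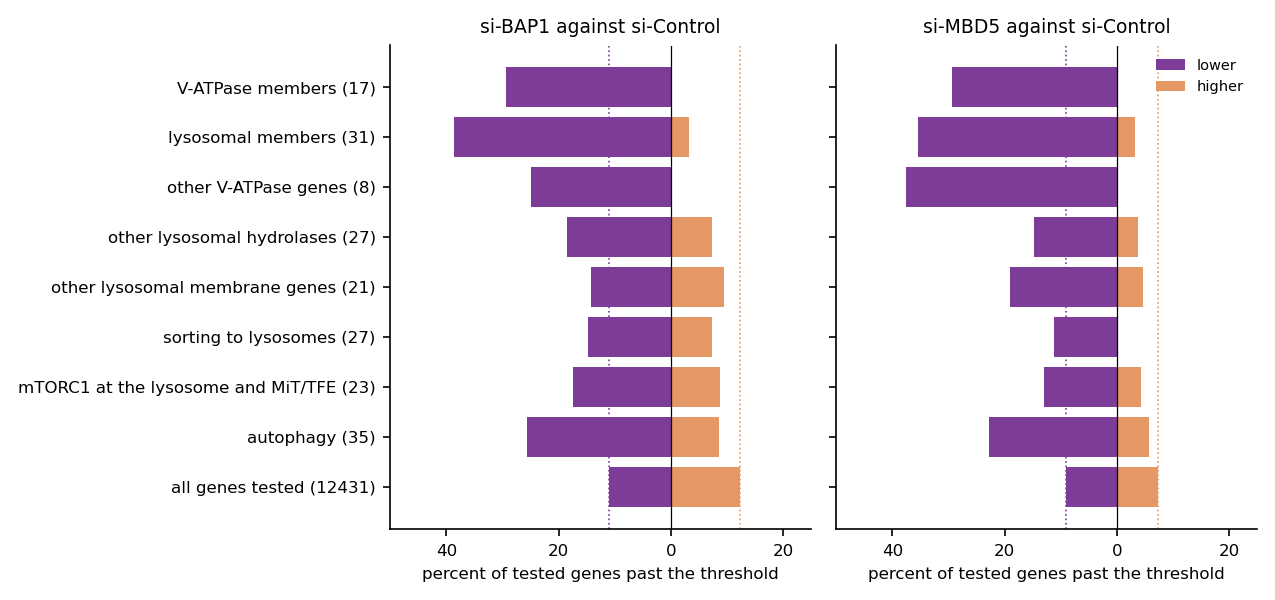
Percent of tested genes past the threshold, lower (left of 0) and higher (right of 0), in si-BAP1 and si-MBD5 cells against si-Control, for the V-ATPase members, the lysosomal members, 6 further lists and all 12431 tested genes, with the number tested in brackets. Dotted lines mark the share of all tested genes. The V-ATPase members fell in 29.4% in each knockdown, beside 11.1% of all tested genes in si-BAP1 and 8.99% in si-MBD5 cells. Among genes above the 80th percentile of intensity, where most members lie, 17% fell in si-BAP1 and 15.8% in si-MBD5 cells. The 29.4% includes ATP6V1C1, whose probe sets gave opposite calls. The shares lower of the other lysosomal hydrolases include CTSS, which was tested only through its si-Control signal.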

How the data were processed

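Total RNA of 9 cultures, extracted with Trizol per the labels, was made into biotin-labelled cRNA from 6 ug and hybridised to Affymetrix arrays. The authors deposited an intensity on a linear scale for each probe set and array, made with MAS5 per the submitters' processing notes; its version, background handling and scaling are not given in the sources used here. Of 49395 probe sets, 102 were controls, 44988 had 1 gene symbol, 1832 several and 2473 none. Symbols were updated through gene identifiers with a RefSeq table (44961 matched, 27 kept).

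From the deposited intensity, log2(intensity + 16) was taken, and the brightest probe set above the 40th percentile of mean intensity stood for its gene. The 9 arrays were fitted together as 3 group means in limma 3.58.1 (R 4.3.3, lmFit and eBayes, empirical Bayes with an intensity trend, 6 residual degrees of freedom). P-values were Benjamini-Hochberg adjusted over all tested genes (or probe sets) of a comparison, with a threshold of 0.05. Targets and RNA quality used exact permutation tests (scipy 1.17.1). The fit was also run on simulated data in which every gene and array varied independently. Such data do not show how the fit behaves where arrays deviate together.

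The precision is set by the number of arrays and by signal over background: the median SE of a fold change was 0.051 log2. The correlation between replicate arrays was 0.9977 to 0.9989, overlapping that between arrays of different groups (0.9958 to 0.9982). Members, gene lists and tests were chosen with earlier results of these data known. Values on every array are given for up to 10 members that rose and 10 that fell most in each knockdown, up to 5 each way between knockdowns, and LAMP1, CTSD, TFEB, MCOLN1 and SQSTM1. The 3 group comparisons were repeated with other constants, normalizations, filters, probe set choices, a replicate block and each array left out. Calls of single genes were followed through these repeats for the members only, not for genes of the further lists. Same-numbered arrays of different groups correlated in their deviations at -0.43 to 0.48, over 0.1 in 3 of 9 pairs, and arrays with other numbers at -0.56 to 0.47. The numbers were therefore not taken to pair the samples. Some arrays of different groups thus deviated together, and whether they share an unlabelled factor was not tested. BAP1 was not analysed here. Promoter windows were not used for the 14 members with no match.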

Additional observations from a re-analysis of the deposited data

Results flagged for a closer look

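The glycosidase gene GUSB differed between the knockdowns: si-BAP1 minus si-MBD5 was 0.137 log2 (limma adjusted p = 0.024), with 0.03 in si-BAP1 and -0.10 in si-MBD5 cells against si-Control, neither of which passed. The thioesterase gene PPT1 differed the other way: si-BAP1 minus si-MBD5 was -0.272 log2 (limma adjusted p = 0.0145), with -0.10 in si-BAP1 and 0.17 in si-MBD5 cells against si-Control, neither of which passed. Both were picked out because the effects of the knockdowns pointed in opposite directions and the test of the difference itself passed. The GUSB call held in 16 of 20 alternative settings and the PPT1 call in 19 of 21. Both were lost without si-MBD5 replicate 1, with 0.12 (adjusted p = 0.0905) for GUSB and -0.25 (adjusted p = 0.0741) for PPT1.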

How the results depend on the processing

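Of 18 calls in si-BAP1 cells against si-Control, 10 held in every alternative setting that gave a value (ATP6V0E1, ATP6V1E1, CD63, CTSA, CTSD, CTSZ, GLA, MCOLN1, NEU1 and SQSTM1), and of 17 in si-MBD5 cells 9 did (ATP6V0E1, ATP6V1D, ATP6V1E1, ATP6V1H, CTSA, CTSZ, GLA, NPC2 and PSAP). CTSA and CTSD gave no value without the _x_at and _s_at probe sets, as they had no others above the filter. Leaving out 1 array in turn gave 14 to 17 members lower and 1 higher in si-BAP1 cells, 9 to 16 lower and 1 to 2 higher in si-MBD5 cells, and 0 to 3 higher and 1 to 3 lower between the knockdowns. Members higher numbered 2 in si-BAP1 cells with the mean of probe sets or without the _x_at and _s_at probe sets, and 2 in si-MBD5 cells in these settings and with quantile normalization. Members higher in si-BAP1 than in si-MBD5 cells numbered 2 with quantile normalization, median centring, no filter or no intensity trend, and 1 without the _x_at and _s_at probe sets or with only the 2 groups compared. They numbered 6 with the mean of probe sets and 5 with the filter at the 80th percentile, against 4 as reported. With the mean of probe sets ATP6V1C1 changed sign, to 0.025 in si-BAP1 and 0.049 in si-MBD5 cells. Uncalled values near 0 changed sign when 1 array was left out: in si-BAP1 cells LAMP1 ran from -0.0198 to 0.0201 and TFEB from -0.0309 to 0.058. The cause of these changes was not tested.

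With the replicate number as a block, 16 members were lower and 1 higher in si-BAP1 cells, 13 lower and 1 higher in si-MBD5 cells, and 2 higher and 3 lower between the knockdowns. The replicate numbers were not shown to pair the samples, as only 3 of 9 same-numbered pairs correlated over 0.1. With 3 arrays a group and a median SE of 0.051 log2, small changes of dim members such as CTSH could not be read.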

Other observations

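Autophagy genes, which form the vesicles that lysosomes degrade, moved in both directions. Of 35 tested, 9 fell and 3 rose in si-BAP1 cells, and 8 fell and 2 rose in si-MBD5 cells, beside 11.1% of tested genes lower and 12.4% higher in si-BAP1 and 8.99% lower and 7.3% higher in si-MBD5 cells. The medians of the 35 were -0.0091 in si-BAP1 and -0.024 in si-MBD5 cells. BECN1, a subunit of the lipid kinase complex that starts autophagosomes, carried opposite calls. It read 1187, 1237 and 1247 in si-BAP1 cells and 1473, 1471 and 1482 in si-MBD5 cells, against 1351, 1371 and 1391 in si-Control cells. The 3 groups did not overlap. BECN1 fell by 0.16 in si-BAP1 cells (limma adjusted p = 0.00144) and rose by 0.10 in si-MBD5 cells (adjusted p = 0.0304), and the difference between the knockdowns was -0.27 (adjusted p = 9.53e-05). These calls rest on its brightest probe set and were not followed through the alternative settings.

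WIPI2, which binds the lipid made by that complex, rose in both knockdowns. It averaged 973.4 ± 17.5 in si-BAP1, 875.4 ± 15.7 in si-MBD5 and 735.6 ± 15.6 in si-Control cells (SD, n = 3 each), a rise of 0.40 in si-BAP1 (limma adjusted p = 2.04e-06) and of 0.25 in si-MBD5 cells (adjusted p = 0.000268). OPTN, a cargo receptor like SQSTM1, averaged 225.5 ± 3.7 in si-BAP1, 243.9 ± 6.4 in si-MBD5 and 281.6 ± 3.4 in si-Control cells (SD, n = 3 each). OPTN fell by 0.30 in si-BAP1 (adjusted p = 7.3e-05) and 0.20 in si-MBD5 cells (adjusted p = 0.00354). RB1CC1, a scaffold of the ULK1 kinase complex, fell by 0.27 in si-BAP1 (adjusted p = 0.000155) and 0.25 in si-MBD5 cells (adjusted p = 0.000693). ATG2A, which moves lipid into growing autophagosomes, fell by 0.36 in si-BAP1 (adjusted p = 4.01e-05), and GABARAPL1, an ATG8-family protein, fell by 0.25 in si-MBD5 cells (adjusted p = 0.000734).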
